A study of Mus musculus with 4 samples.

Results

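The cells described here are the 400 barcodes with the highest summed UMIs of Dmkn, Sbsn and Dact2 in a single-cell RNA library of sorted stromal cells from mouse fat. A barcode stands for 1 droplet and a UMI for 1 counted RNA molecule. Barcodes of the library were kept at 2000 or more UMIs, 500 or more genes and at most 10% mitochondrial UMIs, which left 7191 of 9025. They were then ranked by the sum of the 3 genes per 10000 UMIs, and the 400 at the top are called the chosen barcodes. The other 6791 kept barcodes are the comparison, and a second one is the set of 1590 barcodes with 70 or more Pi16 UMIs per 10000 that were not among the 400. Of the 1835 barcodes at that Pi16 level, 245 were chosen barcodes, and 155 chosen barcodes lay below it. Kept barcodes of the whole series numbered 9624.

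The study sorted vessel progenitor cells from C57BL/6 mice, with 1 library each of fat P2, fat P1, lung P2 and lung P1. The P2 gate took cells without CD45, Ter119 and CD31 that had Tie2, PDGFRa, high Sca1 and low CD105, while the P1 gate took PDGFRa-negative cells with Tie2, CD31, high CD105 and low Sca1. All results below come from fat P2 unless another library is named. The labels give no treatment, age, sex, number of animals or fat depot. With 1 library per group there are no replicates, so no test was run, and every interval covers counting error only. The 3 chosen genes served to pick the barcodes, and every gene was read in the barcodes so picked, so the values are a description.

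Dmkn (dermokine) and Sbsn (suprabasin) encode secreted proteins best known from the differentiating layers of the epidermis, and Krtdap (keratinocyte differentiation-associated protein) is their neighbour in the same gene cluster. Dact2 encodes an intracellular protein that binds Dishevelled and dampens Wnt and TGF-beta signalling. In mouse fat, stromal cells with Pi16 and Dpp4 are known as interstitial progenitors, which lie in the tissue's connective sheets and give rise to committed preadipocytes. Committed preadipocytes are known for Icam1, Col4a1 and lipid-handling genes, and a further stromal state that restrains fat cell formation is known for F3, Mgp and Gdf10.

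Sbsn, Dmkn and Krtdap lie side by side on mouse chromosome 7 on the plus strand (GRCm38, GENCODE vM21). Sbsn spans chr7:30751471-30756134, Dmkn chr7:30763756-30781063 and Krtdap chr7:30787896-30791097, with gaps of 7621 and 6832 bases between them. Dact2 lies at chr17:14195052-14204304 on the minus strand. The 250 bases before the RefSeq start sites of the neighbouring chromosome 7 genes are shown (GRCm38.p6, all on the plus strand). Sbsn and Dmkn served to pick the barcodes, so their high levels there follow from the choice. Krtdap was high there without serving to pick them. Capitals mark a match to the AP-1 motif TGANTCA, which was searched on both strands.
Sbsn start, chr7:30751221-30751470: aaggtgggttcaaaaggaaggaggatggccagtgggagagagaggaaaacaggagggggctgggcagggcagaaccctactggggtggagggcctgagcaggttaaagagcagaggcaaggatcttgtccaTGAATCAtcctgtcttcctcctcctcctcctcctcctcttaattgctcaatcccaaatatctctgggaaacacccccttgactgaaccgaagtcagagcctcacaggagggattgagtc
Dmkn upstream start, chr7:30763506-30763755: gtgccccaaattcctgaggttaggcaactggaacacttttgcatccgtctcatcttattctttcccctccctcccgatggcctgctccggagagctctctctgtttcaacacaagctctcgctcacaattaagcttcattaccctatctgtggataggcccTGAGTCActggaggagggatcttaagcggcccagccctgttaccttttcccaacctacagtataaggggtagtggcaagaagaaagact
Dmkn downstream start, chr7:30776155-30776404: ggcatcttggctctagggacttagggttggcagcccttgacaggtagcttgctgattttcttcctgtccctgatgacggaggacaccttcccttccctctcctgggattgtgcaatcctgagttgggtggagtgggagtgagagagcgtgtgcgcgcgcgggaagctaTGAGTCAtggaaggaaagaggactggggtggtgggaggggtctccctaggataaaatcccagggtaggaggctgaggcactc
Krtdap start, chr7:30787655-30787904: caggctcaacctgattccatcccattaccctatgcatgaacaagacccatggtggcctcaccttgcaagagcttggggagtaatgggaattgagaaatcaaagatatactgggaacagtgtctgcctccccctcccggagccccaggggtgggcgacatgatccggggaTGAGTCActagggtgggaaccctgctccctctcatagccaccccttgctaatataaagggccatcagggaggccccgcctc
The match is TGAATCA at Sbsn and TGAGTCA at the other windows, and its first base lies at -119 for Sbsn, -89 and -82 for the Dmkn starts and -81 for Krtdap, counted from the start site. Another annotated Dmkn start lies 2 bases from the upstream one and shares its match. The Dact2 window held no match. Of all 32851 windows of this length, 6.75% held the motif, and it overlapped neither other motif searched. The Krtdap window also held 1 match each to TATAAA, found in 12.4% of windows, and CTTTGA, found in 13.8%. A match is a description of letters, and libraries that read 3' ends do not show which start was used.

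Fat P2 was the deepest library, with 42558191 UMIs in kept barcodes, against 422834 to 5807846 in the others. The chosen barcodes held 2266072 UMIs and had a median of 5494 UMIs and 2190 genes, and the other barcodes held 40292119 UMIs with medians of 5406 and 2161. Their median mitochondrial shares were 2.82% and 2.88%. The labels of the P1 libraries stand against their tissue genes. CPM are UMIs of a gene per 1000000 UMIs of the group. In the library labelled fat P1 the lung gene Foxf1 stood at 709.9 CPM and the fat gene Fabp4 at 105.5 CPM. In the one labelled lung P1 Foxf1 had no UMI and Fabp4 stood at 12847 CPM. Barcode letters shared with fat P2 numbered 54 in the library labelled lung P1, 8 in that labelled fat P1 and 5 in lung P2. None of the 400 chosen barcodes was shared, against 63 of the other barcodes (0.928%).

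The chosen genes marked a range, with no gap at its edge. The summed level was 81.6 per 10000 UMIs in the highest barcode, 35.7 in the median chosen barcode and 27.06 in the lowest, where 17 of 6283 UMIs came from the 3 genes. The first barcode outside had 27.01, from 18 of 6663 UMIs. The other kept barcodes had a median of 1.94, and 2836 kept barcodes had none of the 3 genes. The chosen barcodes held 6 to 76 UMIs of the 3 genes, with a median of 20.

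**Figure D1:**
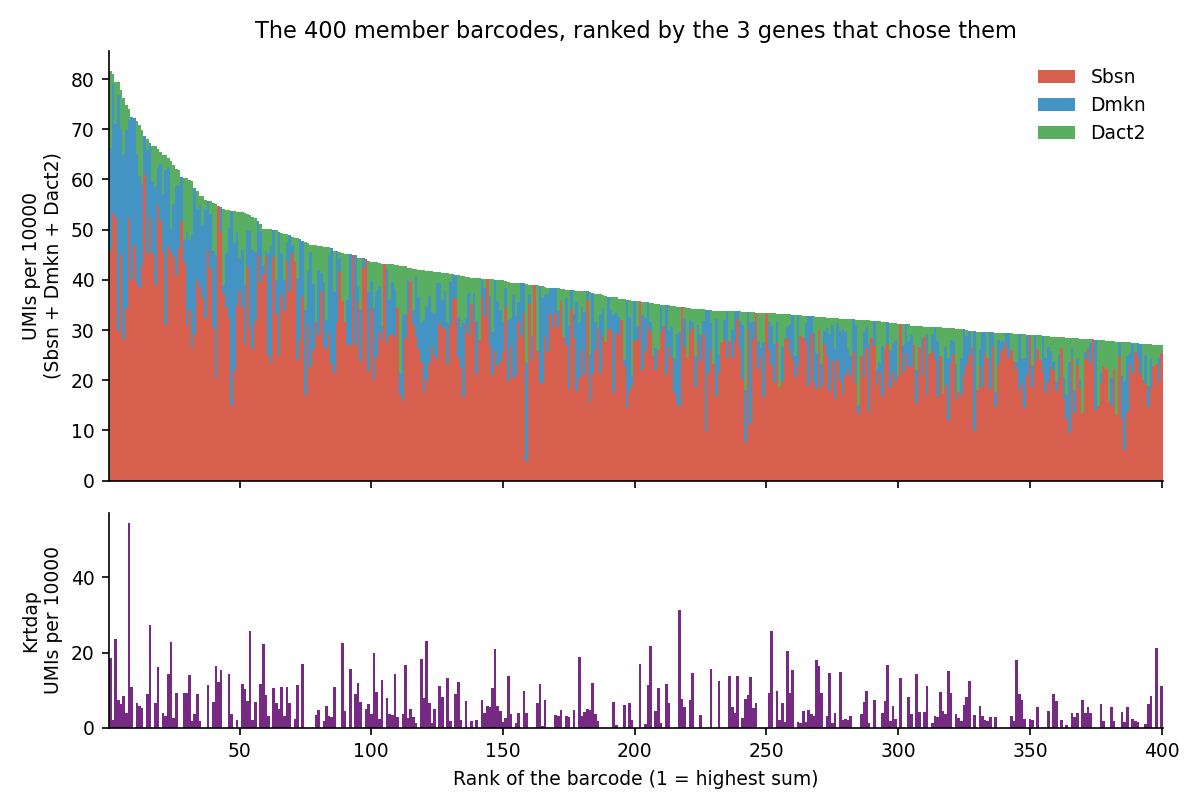
Levels in each of the 400 chosen barcodes (x axis, rank by the summed level, 1 is highest), in UMIs per 10000. The upper panel stacks Sbsn, Dmkn and Dact2, and the lower panel shows Krtdap, which did not choose the barcodes. The summed level runs smoothly from 81.6 to 27.06, and Krtdap is seen along the whole range of ranks.

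Sbsn made up most of the sum. It was present in all 400 chosen barcodes and was the most abundant of the 3 genes in 368, against 27 led by Dmkn and 5 led by Dact2. Dmkn was seen in 329 and Dact2 in 315, and 257 barcodes held all 3 genes, 130 held a pair and 13 held Sbsn alone. Per barcode, Sbsn ranged from 3.91 over a median of 25.9 to 61 UMIs per 10000, Dmkn from 0 over 5.93 to 47.1, and Dact2 from 0 over 3.57 to 21.4. Every chosen barcode thus held Sbsn, while Dmkn and Dact2 were absent from some. Reads of Sbsn cannot be told apart from those of a Tmem147os transcript annotated over it on the same strand, and an antisense transcript is annotated over Dact2. Whether the counting used strand is not given in the sources used here.

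Each chosen gene was also read in barcodes picked without it. Among the 400 barcodes highest in Sbsn and Dact2, Dmkn had 629.7 CPM (95% Poisson interval 597.1 to 663.7), against 62.5 CPM (60.0 to 65.0) in the rest. Among the 400 highest in Dmkn and Dact2, Sbsn had 1831 CPM against 398.1. Among the 400 highest in Dmkn and Sbsn, Dact2 had 360.0 CPM (335.6 to 385.7) against 99.05 (96.0 to 102.2). The log2 ratios, each after adding 10 CPM, were 3.14, 2.17 and 1.76 for Dmkn, Sbsn and Dact2. Each gene was thus higher where the other genes were high, and Dact2, from another chromosome, had the smallest of the ratios.

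Krtdap, the neighbour that the choice did not use, was the gene with the highest ratio among all others. It had 521 CPM (491.4 to 551.3) in the chosen barcodes, against 66.6 CPM (64.1 to 69.2) in the other barcodes, a log2 ratio of 2.79. In the Pi16-high barcodes it had 142.9 CPM (135.0 to 151.1), a log2 ratio of 1.80. After each barcode was thinned to 2000 UMIs, Krtdap was seen in 50.2% of the chosen barcodes (exact Clopper-Pearson interval 45.2 to 55.3), 8.88% of the other barcodes (8.21 to 9.58) and 17.7% of Pi16-high barcodes (15.9 to 19.7). Before thinning it was seen in 273 of the 400 (68.2%) and in 16.1% of the other barcodes. Per chosen barcode it ran from 0 over a median of 3.21 to 54.4 UMIs per 10000, and in the other barcodes from 0 over a median of 0 to 26.7. The ranges overlap, since a share of the chosen barcodes held no Krtdap.

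Krtdap was seen more often the more of the 3 genes a barcode held. After thinning it was seen in 2.89% of 3912 barcodes with none of the genes, 15.3% of 2070 with 1, 27.2% of 981 with 2 and 46.9% of 228 with all 3. The rise was not particular to Krtdap. From none to all 3 genes, Itgb7 went from 3.22% to 25.9%, Ptgs1 from 6.11% to 32.9% and Uchl1 from 5.85% to 30.7%. Pi16 went from 60.0% to 100%, while Apoe fell from 49.8% to 7.46% and Mgp from 19.5% to 2.63%. When 400 barcodes were picked by Krtdap alone, 148 of them were among the chosen barcodes. Dmkn then had 454.5 CPM against 71.2 CPM in the rest, Sbsn 1731 against 404.4, and Dact2 311.8 against 101.4. Within the chosen barcodes, Krtdap was seen in 56.2% of the 130 with both Dmkn and Dact2 (47.2 to 64.8), 52.9% of the 119 with Dmkn and no Dact2 (43.6 to 62.2), 35.7% of the 84 with Dact2 and no Dmkn (25.6 to 46.9) and 52.2% of the 67 with neither (39.7 to 64.6). The share was lowest in the barcodes with Dact2 and no Dmkn, whose interval overlaps all but that of the barcodes with both. The other pairs of intervals overlap. Dmkn and Dact2 helped to pick the barcodes, so this split is tied to the choice. Sbsn differed between the groups as well, with 2574, 2802, 2447 and 2861 CPM in the same order.

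The genes around the cluster did not share its pattern. Tmem147, the nearest well-expressed neighbour, had 75.9 CPM in the chosen barcodes and 71.3 CPM in the other barcodes, and Gm26935, 3033 bases before Sbsn, had 3.53 and 3.92 CPM. Beyond Krtdap, Ffar2 and Ffar3 had 0 UMIs in both groups, and Ffar1 had 0 UMIs in the chosen barcodes and 2 in the others. Next to Dact2, Smoc2, which encodes a matrix protein, was lower, with 52.1 CPM in the chosen barcodes and 355.2 CPM in the other barcodes. The high levels at chromosome 7 therefore covered Sbsn, Dmkn and Krtdap and no further annotated neighbour measured.

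Free RNA can put UMIs into barcodes of cells that do not express a gene. Few barcodes in the library held 10 or more marker UMIs of endothelial, mural, leukocyte, muscle or Schwann cells, and none of these was chosen. Epithelial markers were not counted in this way. With Krtdap left out, 1133 of the 7191 kept barcodes held 3 or more UMIs of endothelial, mural, leukocyte or epithelial markers. Among the 400 chosen barcodes, 66 did. By list, mammary epithelium markers reached 3 UMIs in 12% of the chosen and 9.23% of the other barcodes. Leukocyte markers did in 1.25% and 0.869%, mural markers in 0.75% and 3.12%, and endothelial markers in 0% and 0.427%. After thinning, Krtdap was seen in 1 of 10 endothelial (10.0%), 0 of 13 mural (exact upper limit 24.7%), 1 of 17 leukocyte (5.88%), 0 of 18 muscle (exact upper limit 18.5%) and 2 of 21 Schwann barcodes (9.52%), whose median depths were 3577 to 9155.5 UMIs. Sbsn was seen in 10.0% to 42.9% of these barcodes, Dmkn in 0% to 20% and Dact2 in 0% to 23.5%. So few barcodes give only a wide range. Krtdap was seen in 8.88% of the other barcodes, 2.89% of barcodes with none of the 3 genes and 50.2% of the chosen barcodes. The chosen barcodes were picked by genes that rise with Krtdap. Sbsn was seen in 38.5% of all kept barcodes. Whether free RNA had a part in these shares was not tested.

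The chosen barcodes carried the stromal profile of the sort. The 12 fibroblast markers, Col1a1, Dcn and Gsn among them, summed to 53376 CPM in the chosen barcodes and 65177 CPM in the other barcodes. Of these markers 10 had a log2 ratio below 0, 2 were at least 2-fold lower and 0 were 2-fold higher, with a median of -0.34. Of the gate's genes, Tek, which encodes Tie2, had 217.1 CPM (198.4 to 237.2) and 160.7 CPM (156.8 to 164.7), and Ly6a, a gene for Sca1, had 2699 and 1892 CPM. Pdgfra had 259.5 CPM (238.9 to 281.3) in the chosen barcodes and 456.3 CPM (449.7 to 462.9) in the other barcodes, and Eng, which encodes CD105, had 39.3 and 46.7 CPM. Endothelial markers summed to 10.6 and 29.0 CPM with 9 of 12 at 0 in the chosen barcodes, and leukocyte markers to 16.3 and 38.6 CPM with 7 of 12 at 0. The 20 markers of stratified epithelium summed to 562.6 CPM in the chosen barcodes and 162.1 CPM in the other barcodes, with 11 of 20 at 0 in the chosen barcodes. Krtdap gave nearly all of that sum. Epcam, an epithelial adhesion gene, had 0.883 CPM and 24.4 CPM, Krt8 1.32 and 24.5 CPM, and Krt10 33.5 and 31.4 CPM, while Krt19, a keratin of simple epithelia, had 53.8 and 50.7 CPM. Of the stratified epithelium list only Krtdap was at least 2-fold higher. Of 7 mammary epithelium genes measured 1 was higher and 4 were lower, and the higher one was the claudin Cldn3, with 68.0 and 27.8 CPM. The presence of the fibroblast and gate genes fits the label of stromal cells.

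Apart from the 3 genes of the choice, 3372 genes reached 50 CPM in the chosen or the other barcodes. The chosen barcodes were higher by 2-fold or more in 32 of them (0.949%) and lower by as much in 109 (3.23%). The fold is taken after adding 10 CPM to each group. The median log2 ratio of all these genes was 0.03. The higher genes after Krtdap were Itgb7, an integrin subunit, Uchl1, a deubiquitinase best known in neurons, and Ptgs1, the cyclooxygenase that starts prostaglandin synthesis. Itgb7 had 199.9 CPM (181.9 to 219.2) in the chosen barcodes and 47.0 CPM (44.9 to 49.1) in the other barcodes, a log2 ratio of 1.88. Uchl1 had 217.6 and 63.1 CPM, a log2 ratio of 1.64, and Ptgs1 had 237.4 and 71.2 CPM, a log2 ratio of 1.61. All of these were seen in fewer than 40% of chosen barcodes after thinning.

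The next genes by ratio included ligands and signalling genes. Il34, a ligand of the macrophage receptor Csf1r, had 139.4 CPM in the chosen barcodes and 45.2 CPM in the other barcodes. Bmp3, a secreted BMP family member, had 131.1 and 50.4 CPM, and Akr1c18, an enzyme that breaks down progesterone, had 616.9 and 247.5 CPM. Igfbp5, a binding protein of insulin-like growth factors, was the most abundant gene of this group, with 8494 CPM (8374 to 8615) and 3448 CPM (3430 to 3466). It was seen in 99.8% of the chosen barcodes and 77.0% of the other barcodes after thinning. Ildr2, Olfml2a, Stmn4, Gabra2, Chst1 and Fam167a had log2 ratios from 1.18 to 1.56. In these genes the level was higher in the chosen barcodes than in the Pi16-high barcodes as well, by log2 ratios of 0.29 for Bmp3 to 1.80 for Krtdap.

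**Figure D2:**
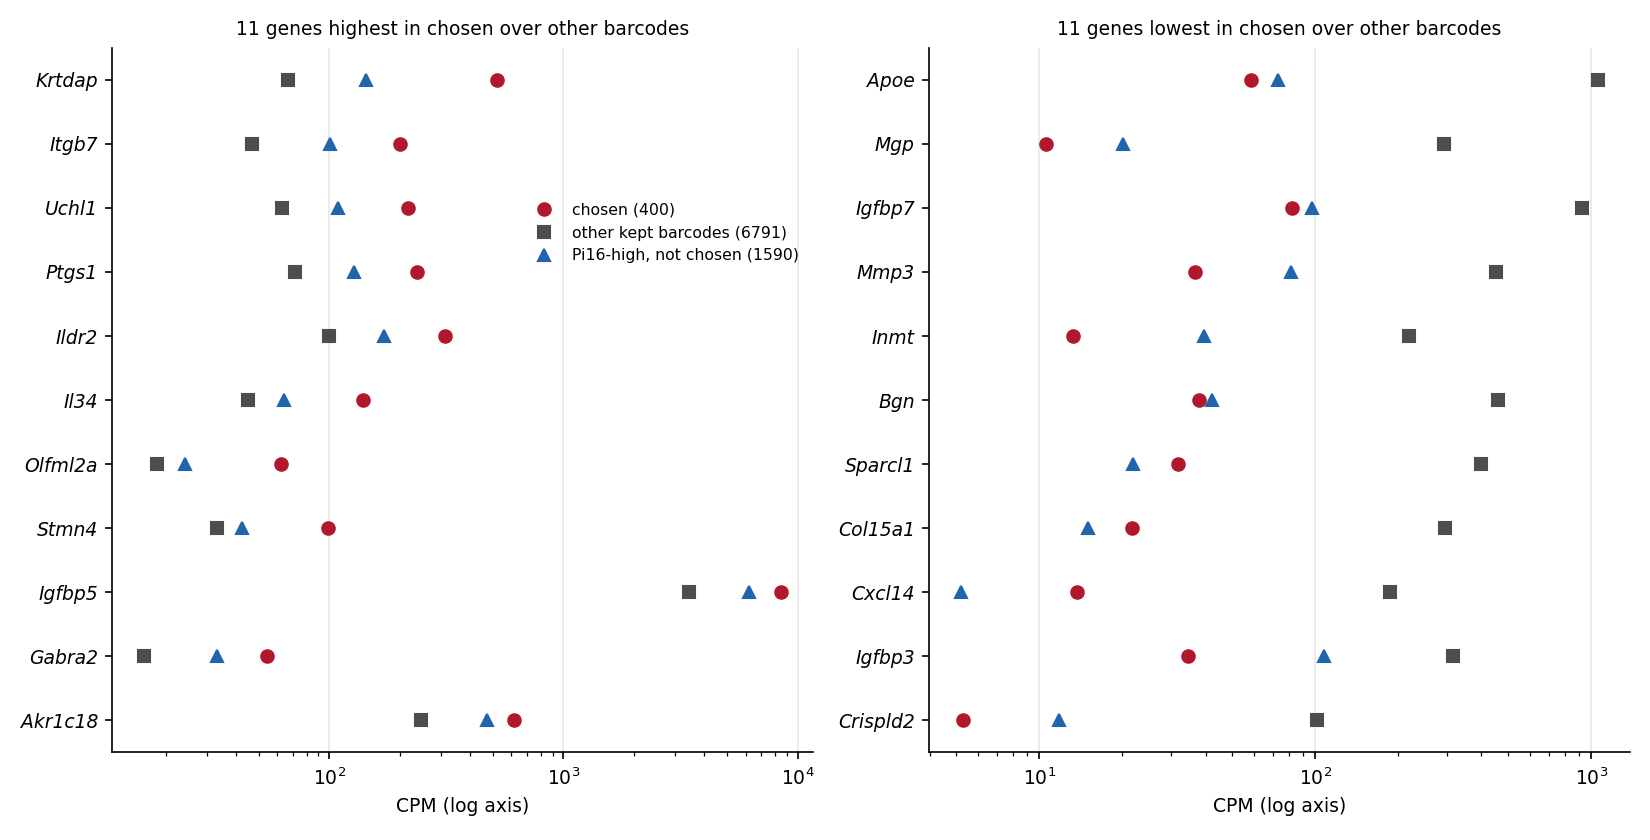
Levels in CPM (log axis) of the 11 genes with the highest and the 11 with the lowest log2 ratio, in the 400 chosen barcodes (circles), the 6791 other kept barcodes (squares) and the 1590 Pi16-high barcodes (triangles). On the left the chosen barcodes lie highest for each gene. On the right the chosen and the Pi16-high barcodes both lie below the other barcodes, with Apoe at 58.2, 1057 and 73.4 CPM in chosen, other and Pi16-high barcodes.

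The lower genes included markers of the committed and the restraining stromal states. Apoe, a lipid carrier, had 58.2 CPM (48.7 to 69.1) in the chosen barcodes and 1057 CPM (1047 to 1067) in the other barcodes, a log2 ratio of -3.97. Mgp, an inhibitor of calcification, had 10.6 and 293.0 CPM, a log2 ratio of -3.88. Igfbp7, Mmp3, Inmt, Bgn, Sparcl1, Col15a1, Cxcl14, Igfbp3, Crispld2, Col4a2, Col4a1 and Tmem176b followed, with log2 ratios from -3.34 to -2.61. These genes were low in the Pi16-high barcodes as well, where Apoe had 73.4 CPM, Mgp 20.03 CPM and Col4a1 130.3 CPM, against 119.6 CPM of Col4a1 in the chosen barcodes.

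Gene lists were read at 20 CPM or more in 1 group. At that minimum 38 of 6565 genes were 2-fold higher in the chosen barcodes than in the other barcodes (0.579%) and 188 were lower (2.86%), and the median log2 ratio of all of them was 0.00. All 16 genes of the interstitial progenitor list were above 0 in log2 ratio, with 5 at least 2-fold higher, none lower and a median of 0.91. Efhd1 had 558.7 and 255.2 CPM, Cd55, a brake on complement, 877.3 and 406.0 CPM, and Pcsk6, a proprotein convertase, 584.3 and 268.9 CPM. Limch1 and Bmp7 were the others past 2-fold. Pi16 itself had 7738 CPM (7624 to 7853) in the chosen barcodes and 4028 CPM (4009 to 4048) in the other barcodes. It was seen in 100% of the chosen barcodes after thinning (99.1 to 100) and in 75.3% of the other barcodes (74.3 to 76.3). Dpp4, a surface peptidase, differed less, with 729.9 CPM in the chosen barcodes and 549.2 CPM in the other barcodes.

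Of the 12 committed preadipocyte genes measured, 11 were at least 2-fold lower and none higher, with a median log2 ratio of -2.34. Lpl, lipoprotein lipase, had 343.3 CPM in the chosen barcodes and 1191 CPM in the other barcodes, Fabp4, a fatty acid carrier, 19.0 and 90.0 CPM, and Icam1, an adhesion molecule, 4.41 and 70.9 CPM. Plin2, a lipid droplet coat gene, was the member that did not reach 2-fold, with 56.0 and 93.9 CPM. Of the 10 genes of the state that restrains fat cell formation, 8 were lower and none higher, with a median of -2.48. Gdf10, a TGF-beta family ligand, had 13.2 and 121.2 CPM, and Cygb, a globin, 58.2 and 364.1 CPM. Fat cell markers summed to 20.7 CPM in the chosen barcodes and 99.8 CPM in the other barcodes, with 7 of 10 at 0 in the chosen barcodes.

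**Figure D3:**
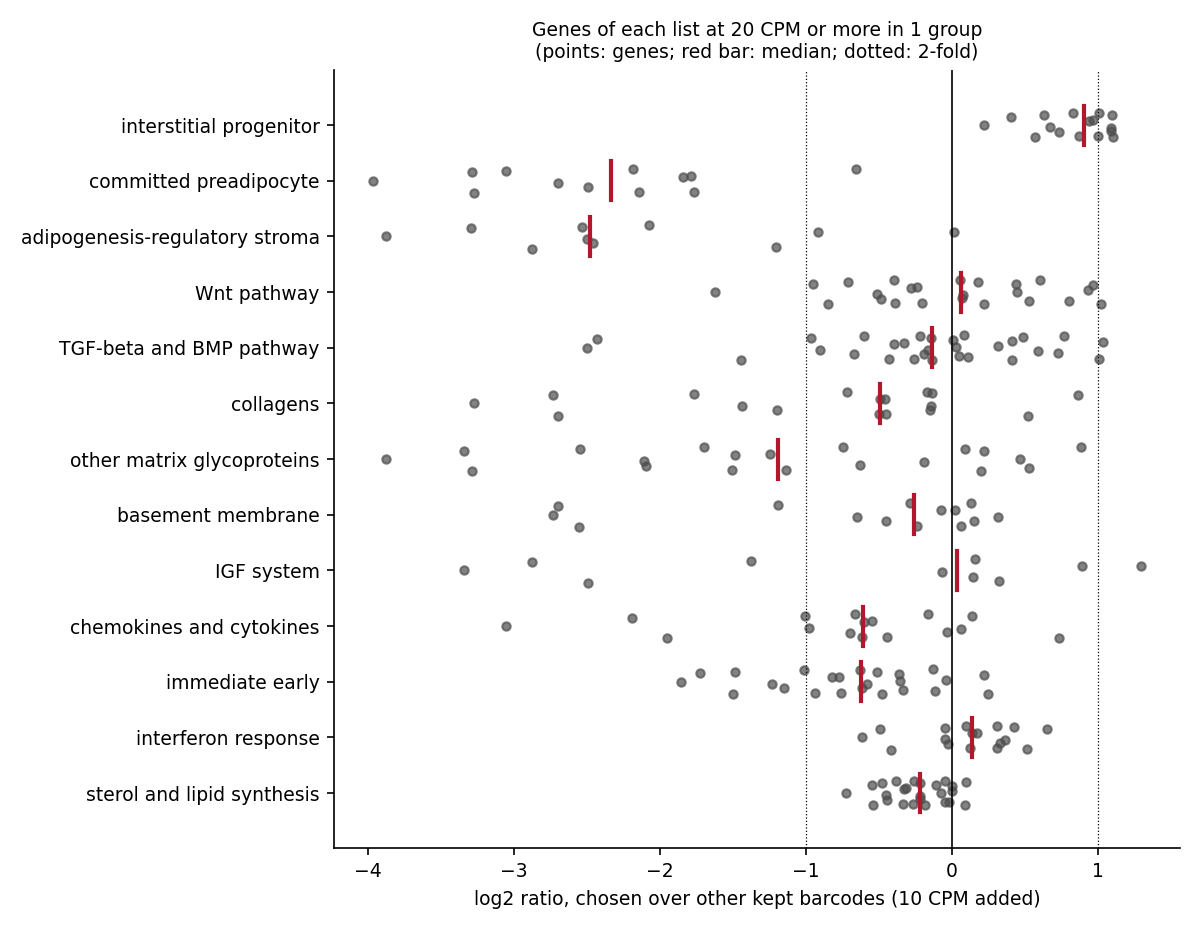
Log2 ratio (x axis, chosen over other kept barcodes, 10 CPM added) of each gene at 20 CPM or more, by gene list (y axis), with the list median as a red bar and 2-fold as dotted lines. The interstitial progenitor genes all lie above 0 with a median of 0.91, the committed preadipocyte genes all below 0 with a median of -2.34, and the Wnt genes on both sides with a median of 0.06.

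The signalling lists, to which Dact2 is linked, were mixed. Of 24 Wnt pathway genes measured, 1 was 2-fold higher and 1 lower, and the median log2 ratio was 0.06. Wnt10b, a ligand, had 113.0 CPM (99.6 to 127.7) in the chosen barcodes and 50.5 CPM (48.3 to 52.8) in the other barcodes, and Wnt2, another ligand, had 341.1 and 169.7 CPM. Dact1, the paralogue of Dact2, had 336.7 CPM (313.2 to 361.5) and 171.9 CPM (167.9 to 176.0), which is short of 2-fold on this scale. The secreted Wnt inhibitors Sfrp1 and Sfrp2 had 27.8 and 350.4 CPM in the chosen barcodes and 63.1 and 504.1 CPM in the other barcodes. Wisp2, a gene that Wnt signals raise in some cells, had 0.441 and 22.1 CPM. Of 30 TGF-beta and BMP genes, 2 were higher and 3 lower, with a median of -0.14. The higher genes were the ligands Bmp2, with 95.8 and 41.7 CPM, and Bmp7, with 85.6 and 37.5 CPM. Among the lower genes were Gdf10 and Tgfbi, with 23.4 and 170.3 CPM for Tgfbi.

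Matrix genes leaned to lower levels. Of 17 collagens, none was 2-fold higher and 6 were lower, with a median log2 ratio of -0.49, and Col12a1 had the highest ratio, with 67.1 CPM in the chosen barcodes and 32.3 CPM in the other barcodes. Of 20 other matrix glycoproteins 11 were lower and none higher, with a median of -1.19, and Ecm1, which binds matrix proteins of skin, had 1394 and 749.0 CPM. Elastic fibre genes split, with 10 of 20 above 0 and 4 at least 2-fold lower. Mfap5, a microfibril protein, had 3544 CPM and 1769 CPM, while Lox, which crosslinks elastin and collagen, had 30.01 and 125.7 CPM. The insulin-like growth factor list had 1 gene higher and 4 lower of 10. Igfbp6 had 5992 and 3220 CPM beside the high Igfbp5, whereas the growth factor Igf1 had 38.4 and 262.2 CPM.

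Lists tied to cell handling and growth gave these counts. Of 24 immediate early genes, which stress of tissue digestion is known to raise, none was higher and 7 were lower, with a median of -0.62, and Jun had 1881 CPM in the chosen barcodes and 4194 CPM in the other barcodes. Neither the 17 interferon response genes nor the 25 genes of sterol and lipid synthesis nor the 7 Hox genes held any at 2-fold. None of the 13 proliferation genes reached 20 CPM. Of the chemokine list, 4 of 16 were lower and none higher, among them Cxcl12, with 51.6 and 271.8 CPM. Whether handling stress had a part in the differences above was not tested.

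Several other lists held a single gene past 2-fold upward. Of 13 angiogenic ligands and receptors 1 was higher and 6 were lower. The higher one was Pgf, a ligand of the VEGF family, with 45.0 CPM in the chosen barcodes and 16.4 CPM in the other barcodes, and its log2 ratio was -0.079 among barcodes with Y-linked and no Xist UMIs. Of 9 complement genes Cd55 was higher and 3 were lower. Sema3e, a secreted semaphorin, had 67.1 CPM in the chosen barcodes and 25.8 CPM in the other barcodes, with 1 of 13 semaphorin and slit genes higher and 3 lower. Aldh1a3, which makes retinoic acid, had 327.9 and 149.0 CPM, with 1 of 11 retinoid genes higher and 4 lower. Itgb7 was the only gene higher of 19 adhesion and junction genes, and 4 were lower, Icam1 among them. Of 30 stromal transcription factors none was higher and 3 were lower.

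Set against the Pi16-high barcodes, few genes were far apart. The chosen barcodes were higher by 2-fold or more in 4 of 3263 genes at 50 CPM (0.123%) and lower by as much in 10 (0.306%), with a median log2 ratio of 0.02. The higher genes were Krtdap, Olfml2a, Stmn4 and Il34. Olfml2a, a matrix gene, had 62.2 CPM (52.4 to 73.4) in the chosen barcodes and 24.3 CPM (21.1 to 27.8) in the Pi16-high barcodes. Stmn4, a microtubule regulator, had 99.3 and 42.4 CPM, and Il34 had 139.4 CPM (124.5 to 155.7) and 64.2 CPM (58.9 to 69.7). Olfml2a, Stmn4 and Il34 lay near 2-fold, with log2 ratios of 1.07, 1.06 and 1.01. The count of 4 was 1 with barcodes ranked by Dmkn and Sbsn. It was 37 among barcodes with Y-linked and no Xist UMIs, where 61 chosen were set against 61 Pi16-high barcodes. With so few barcodes the counting error is larger than in the main comparison. Fam167a, Uchl1, Itgb7, Ptgs1, Hk2, Ildr2, Cldn3, Hspb1, Sema3e, Phactr1 and Lgi2 came next, with log2 ratios from 0.73 to 0.96. Pi16 was lower in the chosen barcodes, 7738 against 9279 CPM, which the choice of the Pi16-high side fixes.

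Cxcl13, a chemokine that attracts B cells, was the lowest gene against the Pi16-high barcodes. It had 56.9 CPM (47.5 to 67.6) in the chosen barcodes and 269.6 CPM (258.7 to 280.8) in the Pi16-high barcodes, a log2 ratio of -2.06. It was seen in 7.5% of chosen barcodes and 21.1% of Pi16-high barcodes after thinning. Fbln1, a matrix fibulin, had 139.9 and 396.9 CPM, Igfbp3 34.4 and 107.9 CPM, Igf1 38.4 and 97.8 CPM, and C4b, a complement component, 105.9 and 229.4 CPM. AW551984, Fibin, Chrdl1, Fgl2 and Cygb completed the 10. Igfbp3 was short of 2-fold with barcodes ranked after thinning (log2 ratio -0.63), by Dmkn and Dact2 (-0.73) or by Krtdap (-0.48), against -1.41 here. The count of 10 ran from 1 at 3-fold to 43 among barcodes with Y-linked and no Xist UMIs, again 61 against 61 barcodes. At 20 CPM or more, 6 of 6367 genes were higher (0.0942%) and 15 lower (0.236%). In the lists read at that minimum, the only one with a gene 2-fold higher was stratified epithelium, through Krtdap. Of the 15 interstitial progenitor genes measured besides Pi16 none was past 2-fold in either direction, with a median of 0.14. Of 6 committed preadipocyte genes none was, with a median of 0.02. Of 6 genes of the state that restrains fat cell formation, 2 were 2-fold lower and 0 higher, with a median of -0.75. The insulin-like growth factor list had 2 of 9 genes lower, and the remaining lists held fewer lower genes. Dpp4 had 729.9 CPM in the chosen barcodes and 914.7 CPM in the Pi16-high barcodes.

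Down the ranking most of these genes ran as a slope. Krtdap had 521 CPM in the chosen barcodes, 329.2 CPM in the next 400 by rank, 164.7 CPM in the 800 after those, 56.1 CPM in the other barcodes with a UMI of the 3 genes and 4.53 CPM in those with none. Itgb7 had 199.9, 139.0, 98.1, 50.8 and 10.5 CPM in the same classes, and Apoe had 58.2, 124.9, 301.8, 670.0 and 1919 CPM. Dpp4 did not follow this order, with 729.9, 817.4, 772.9, 663.2 and 295.9 CPM, and neither did Cxcl13, with 56.9, 104.9, 143.1, 296.1 and 250.8 CPM. Median UMIs per barcode in these classes were 5494, 5558, 5569.5, 5682 and 5051.5.

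**Figure D4:**
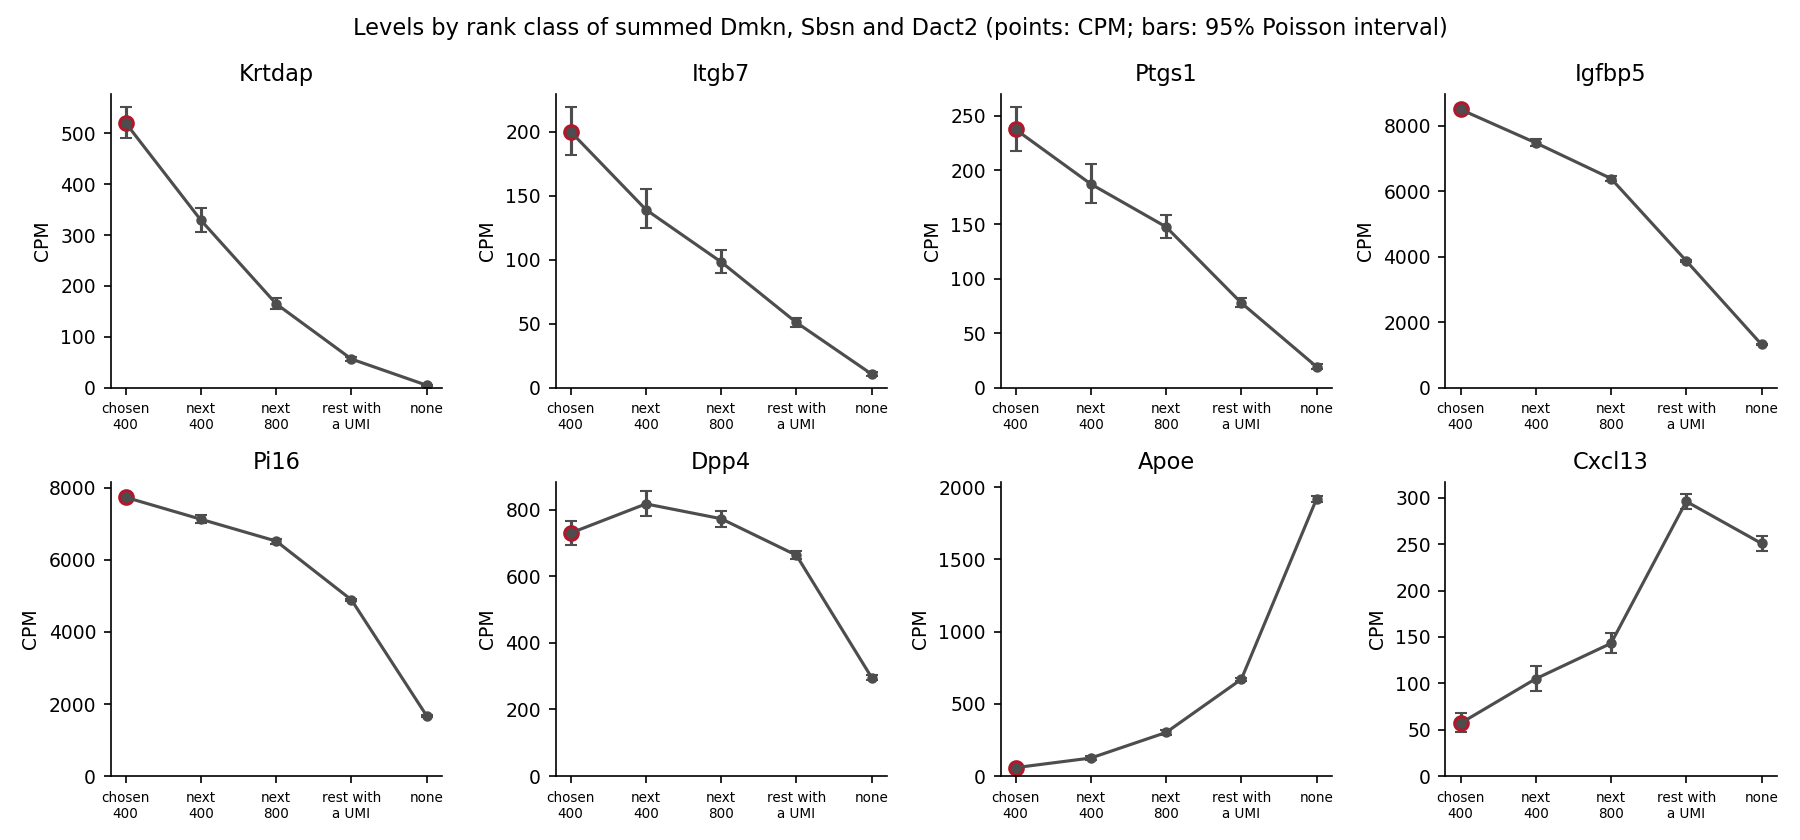
Level in CPM (y axis) of 8 genes by rank class of summed Dmkn, Sbsn and Dact2 (x axis, the chosen barcodes at the left in red, barcodes with none of the 3 genes at the right), with 95% Poisson intervals. Krtdap, Itgb7, Ptgs1, Igfbp5 and Pi16 are highest in the chosen barcodes, Dpp4 peaks in the 400 barcodes next in rank with 817.4 CPM, and Apoe is lowest in the chosen barcodes with 58.2 CPM.

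Within the chosen barcodes, levels varied with rank. Krtdap had 730.0 CPM in the 100 highest by rank, 466.1 CPM and 523.6 CPM in the next sets of 100, and 380.4 CPM in the 100 lowest. Apoe had 42.9, 21.6, 22.4 and 141.4 CPM in the same order. Barcodes with Dmkn and no Dact2 after thinning differed little from those with Dact2 and no Dmkn. A 2-fold difference was reached upward by 11 of 3485 genes at 50 CPM (0.316%) and downward by 18 (0.516%), with Hsd11b1, which activates glucocorticoids, at 77.1 CPM (57.6 to 101.1) and 15.4 CPM (6.19 to 31.7), and Ptx3, a pentraxin of innate immunity, at 148.2 CPM (120.6 to 180.3) and 365.4 CPM (311.9 to 425.4). Both genes were picked here after their values were seen.

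Chosen barcodes at Pi16 of 70 or more differed from those below it in 8 of 3362 genes, all lower (0.238%, with 0% higher). Apoe had 22.9 CPM in the 245 barcodes at that level and 111.1 CPM in the 155 below it, Igfbp7 39.8 and 146.2 CPM, and Col4a1 66.3 and 199.0 CPM. Krtdap had 562.4 and 458.5 CPM. The other genes at 50 CPM stayed within 2-fold. Below that minimum larger differences occurred, as for Cxcl14, with 2.21 and 30.8 CPM.

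Clusters built without the 3 genes split the chosen barcodes over several groups. Of 19 Leiden clusters, 10 held at least 1 of them. Krtdap took part in the clustering, and cluster 10, which it led, held 138 (34.5%) of the 400, which made up 30.1% of its 459 barcodes (25.9 to 34.5). Cluster 5, led by Sult1e1, Il1r2 and Il18r1, with a Y-linked UMI in 58.2% of its barcodes, held 93, or 15.7% of 591 (12.9 to 18.9). Cluster 6, led by Mrgprg, Bmp6 and Pi16, held 52, cluster 8, led by Mrgprg and Ptx3, held 42, and cluster 9, led by interferon genes, held 22. Cluster 16, led by Akr1c18, Dmkn and Itgb7, held 37, or 19.3% of 192 (13.9 to 25.6). Cluster 7, the Cxcl13 cluster of 905 barcodes, held 9 (0.994%). Each other cluster held 4 or fewer. The 400 thus cross several clusters and are not given a cell type name.

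Levels of genes that the choice did not use differed between the chosen barcodes of these clusters. The clustering could use these genes, however. Krtdap and Ptgs1 were among the leading genes of cluster 10, and Il1r2 among those of cluster 5. Their differences between these clusters are thus partly set by the clustering. Krtdap had 469.5 CPM in the chosen barcodes of cluster 5, 376.0 in cluster 6, 386.9 in cluster 8, 412.6 in cluster 9, 684.0 in cluster 10 and 593.1 in cluster 16. Igfbp5 ranged from 5424 CPM in cluster 5 to 10732 CPM in cluster 10, and Ptgs1 from 131.5 to 327.7 CPM in the same clusters. In each of these clusters Krtdap was higher in the chosen barcodes than in the others of the cluster, which had 117.9, 107.2, 99.6, 80.4, 261.3 and 111.8 CPM. Il1r2, a decoy receptor of interleukin 1, had 562.7 CPM in the chosen barcodes of cluster 5 and 42.2 CPM in those of cluster 10.

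Cluster 16 stood apart in depth and in nuclear RNA. Its barcodes had a median of 2628.5 UMIs. The nuclear RNA Malat1 had 1724 CPM in its 37 chosen barcodes and 1109 CPM in its other barcodes, against 33774 CPM in the chosen barcodes outside it. Without the cluster the Krtdap log2 ratio over the other barcodes was 2.79 and 34 genes were higher by 2-fold or more, against 32 with it. An Xist UMI was seen in 3.12% of the cluster's barcodes, so the barcodes with neither Xist nor Y-linked UMIs include most of them.

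**Figure D5:**
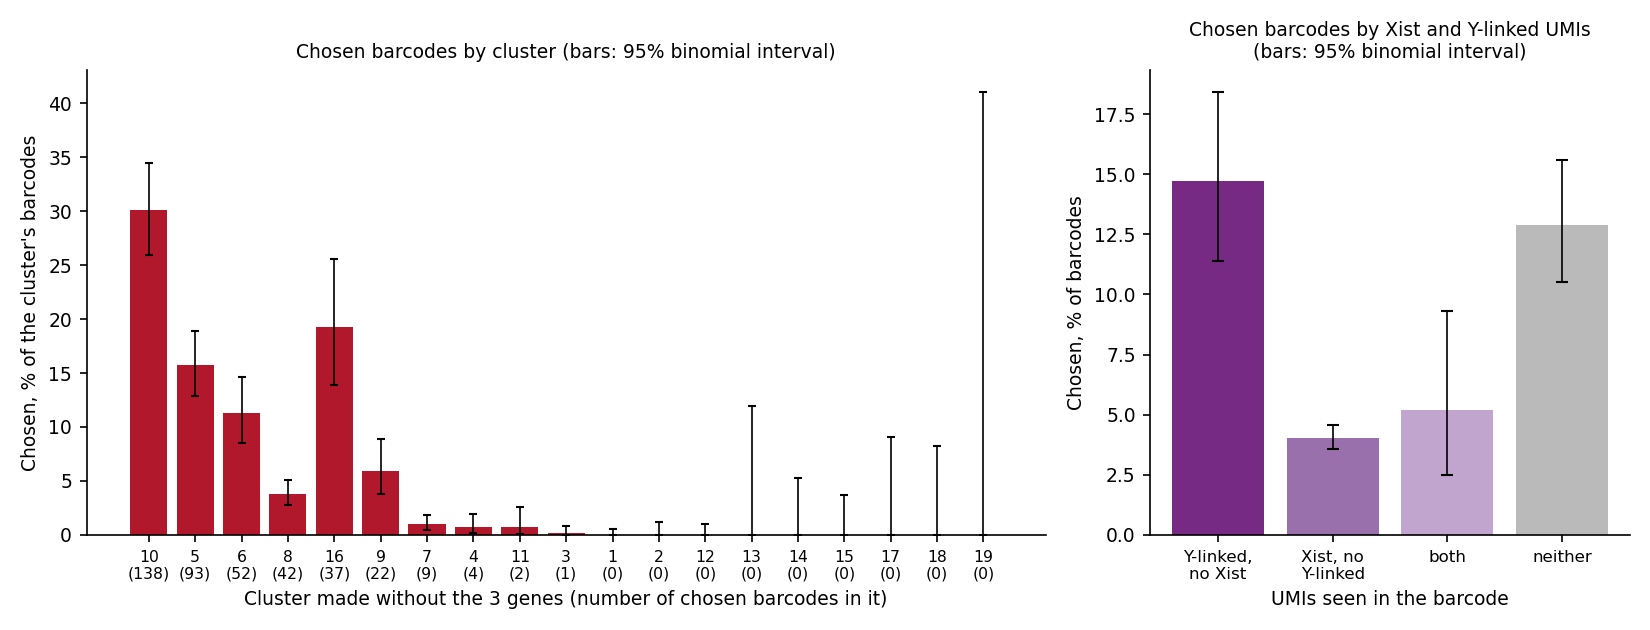
Share of barcodes that were chosen (y axis, percent, with 95% binomial intervals) by cluster made without the 3 genes, with the number of chosen barcodes in brackets (left), and by Xist and Y-linked UMIs seen in the barcode (right). Cluster 10 has the largest share with 30.1%, and barcodes with Y-linked and no Xist UMIs have 14.7%, against 4.05% of those with Xist and no Y-linked UMIs. Barcodes with neither have 12.9%, and those with both have 5.18%.

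Xist, the RNA of the inactive X chromosome, and Y-linked genes moved with the choice. An Xist UMI was seen in 62.0% of the chosen barcodes and 85.7% of the other barcodes, and a UMI of any of 4 Y-linked genes in 17.8% and 7.92%. Of 416 barcodes with Y-linked and no Xist UMIs 61 were chosen (14.7%, 11.4 to 18.4), against 238 of 5876 with Xist and no Y-linked UMIs (4.05%, 3.56 to 4.59). The order held in each of 3 depth classes of barcodes, low to high, with 13.6%, 19.8% and 12.6% against 3.45%, 5.15% and 3.42%. Pi16-high barcodes did not show it, with 20.4% (16.7 to 24.6) of Y-linked and 25.5% (24.4 to 26.7) of Xist barcodes. Dmkn had 190.8 CPM (174.7 to 207.9) over all barcodes with Y-linked and no Xist UMIs and 74.6 CPM (71.8 to 77.5) over those with Xist and no Y-linked UMIs. Sbsn had 760.2 and 430.6 CPM, and Dact2 133.3 and 108.6 CPM. Of 706 barcodes with neither Xist nor Y-linked UMIs 91 were chosen (12.9%, 10.5 to 15.6), and of 193 with both, 10 (5.18%, 2.51 to 9.32). Dmkn had 161.7 and 149.9 CPM over these, Sbsn 727.4 and 505.6 CPM, and Dact2 144.7 and 110.2 CPM. A raised share of chosen barcodes was thus also seen in barcodes with neither. Sex, animal and preparation cannot be told apart here, since the labels name none of them.

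Krtdap was high in the chosen barcodes of either kind. It had 554.8 CPM in the chosen barcodes and 86.7 CPM in the other barcodes with Y-linked and no Xist UMIs, and 536.6 and 64.1 CPM in those with Xist and no Y-linked UMIs. Between the 61 and the 238 chosen barcodes of these kinds, the Y-linked kind was higher by 2-fold or more in 29 of 3433 genes (0.845%) and lower in 23 (0.67%), with sex-linked genes left out. Il1r2 had 495.2 CPM (427.5 to 570.6) and 63.9 CPM (51.2 to 78.7), and Il4ra, a receptor of interleukins 4 and 13, 33.7 CPM (17.9 to 57.6) and 165.5 CPM (144.8 to 188.5). Both were picked after their values were seen. Of the 52 genes, 49 had the same direction in barcodes that were not chosen. The share of all 3433 genes with the same direction was not counted, so the 49 cannot be set against it. The part of this mixture in the differences between chosen and other barcodes was not tested beyond these values.

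The other libraries held little of the 3 genes. Sbsn had 476.3 CPM over all kept barcodes of fat P2, 3.44 CPM in the library labelled fat P1 (2.10 to 5.32), 5.82 CPM in lung P2 (3.39 to 9.31) and 11.8 CPM in the library labelled lung P1 (3.84 to 27.6). Dmkn had 91.9 CPM in fat P2 and 0.172, 4.11 and 4.73 CPM in the same other libraries. Dact2 had 112.8 CPM in fat P2 and 0 UMIs in the others, where 3 counts would be 0.517, 1.03 and 7.09 CPM. Krtdap also had 0 UMIs there. Fat P2 was therefore higher than each other library for each chosen gene beyond counting error. Lung P2, of the same gate, held Pi16 at 226.5 CPM, against 4226 CPM in fat P2, so the Pi16 level differed along with the chosen genes.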

How the data were processed

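Fat and lung cells of C57BL/6 mice were sorted and profiled as 4 libraries with a 10x Genomics 3' kit, per the labels' protocols. Cell Ranger 3.1.0 and mm10 stand in the submitters' processing notes. The authors deposited raw UMI counts per gene and barcode. A matrix held 31053 gene entries, and IDs with the same symbol (35 symbols) were added up. Fat P2 was analysed with Python 3.11.15, numpy 2.4.6, scipy 1.17.1 and scanpy 1.11.5.

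UMIs were summed per group of barcodes and scaled to CPM with exact Poisson 95% intervals, and log2 ratios were taken after adding 10 CPM. Shares of barcodes with a UMI were counted after thinning each barcode to 2000 UMIs, with exact Clopper-Pearson intervals. Intervals cover counting error only, and with 1 library per group no p-value was computed. Genes entered a comparison at 50 CPM, or list counts at 20 CPM, in 1 group. A gene with 0 UMIs can stand at up to 3 counts. Leiden clusters used variable genes without Dmkn, Sbsn and Dact2 at resolution 1. No barcode was removed as a doublet: Scrublet's automatic threshold marked 0, and removal of the 414 highest scores, 2 of them chosen barcodes, was an alternative. The text names the 15 genes at each end of either comparison, sort gate genes, up to 6 genes per list with the largest ratios, genome neighbours and leading genes of clusters. Not every gene or list that this names is reported. Gene positions came from GENCODE vM21 by gene ID, and promoter windows from RefSeq, which matched all 4 genes asked. The chosen barcodes, gene lists and marker lists were set with earlier results of these data known. The scripts were checked on simulated counts.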

Additional observations from a re-analysis of the deposited data

How the results depend on the processing

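In 27 alternatives (thresholds, ranking genes, depth, scaling, barcodes left out), the 15 highest and 15 lowest genes against the other barcodes kept their direction. Against the Pi16-high barcodes, in 30 alternatives, all did but for 2 settings: 14 of the 15 highest did with Y-linked and no Xist UMIs and 13 of the 15 lowest did when ranked by Krtdap. In both comparisons, alternatives that changed only the minimum CPM or the fold left the log2 ratios as they were. The direction of a gene could not change in those. The genes were picked as the extremes of these same comparisons, and the alternatives reuse many of the same barcodes, so a kept direction says little. With ranking by Krtdap, Krtdap was still counted among the 15 highest, where its direction followed from the ranking. The Krtdap log2 ratio ran from 2.29 to 3.25 over the other barcodes and from 1.34 to 2.0 over the Pi16-high barcodes, with ranking by Krtdap left out. Of the 32 genes higher than in the other barcodes, the count was 50 with 1 CPM added, 9 with 50 CPM added, 20 at a minimum of 100 CPM, 149 at 1.5-fold, 4 at 3-fold and 67 without Pi16-high barcodes on the other side. Of the 109 lower, it was 65 with 50 CPM added, 188 at 20 CPM, 65 at 100 CPM, 237 without a minimum, 196 at 1.5-fold and 63 at 3-fold. Of the 4 higher than in the Pi16-high barcodes, it was 2 after ranking on thinned UMIs, 1 ranked by Dmkn and Sbsn, 2 at 1000 UMIs, 2 as a mean over barcodes, 1 with 50 CPM added, 2 at 100 CPM, 8 without a minimum, 22 at 1.5-fold, 1 at 3-fold, 1 with chosen barcodes kept on both sides, 12 without those at Pi16 of 70, 2 ranked by Krtdap and 37 with Y-linked and no Xist UMIs. Of the 10 lower, it was 16 with 200 barcodes, 6 with 800, 6 after ranking on thinned UMIs, 5 ranked by Dmkn and Dact2, 2 with 50 CPM added, 35 at 1.5-fold, 1 at 3-fold, 16 at Pi16 of 50, 2 ranked by Krtdap and 43 with Y-linked and no Xist UMIs. Against the Pi16-high barcodes, the Y-linked setting held 61 chosen and 61 Pi16-high barcodes, so its counts carry more counting error. The causes were not tested. The log2 ratio changed sign for Krt18 (0.022 without barcodes holding markers of other cell types, 0.087 in Y-linked barcodes), Ly6d (0.049 ranked by Krtdap) and, in Y-linked barcodes, Pgf (-0.079), Slit2 (0.045) and Thbs1 (0.189). At Leiden resolution 0.5 the cluster holding most chosen barcodes held 50.2% of them. Alternatives that use Xist or Y-linked UMIs, Krtdap ranking, shared barcodes or the low-UMI cluster were chosen after seeing the data. No paired analysis was possible because each group has 1 library.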
